A study of Mus musculus with 18 samples.

Results

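The proteasome subunit genes were the genes whose symbols consist of Psma, Psmb, Psmc or Psmd followed by a number and whose mean over the 18 libraries was at least 1 CPM, a count scaled to a common library size. They were 36 of the 39 genes with such symbols and of the 16279 genes at that level, 16 of them core genes (Psma and Psmb) and 20 regulatory genes (Psmc and Psmd). All 36 passed the test's filter on low counts. The 3 genes left out were Psmb9 at a mean of 0.426 CPM, Psma8 at 0.314 CPM and Psmb11 at 0.120 CPM, and the member nearest the limit was Psmb8 at 1.15 CPM.

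Spinal cords of 18 untreated mice aged 10 months, labelled as whole cord, 3 for each of 6 genotypes, were used for RNA sequencing. The Q33 double mutant (labelled Q33;TDP-43) carried human ATXN2 with a tract of 33 glutamines together with human TDP-43, and the Q22 double mutant (Q22;TDP-43) carried the form with 22 glutamines together with human TDP-43. The single knock-ins carried TDP-43 alone, Q33 alone or Q22 alone, and the controls were non-transgenic C57BL/6 mice (NTg). All knock-ins were heterozygous, and the locus and promoter that drive the human sequences are not given in the sources used here. ATXN2 encodes an RNA-binding protein whose expanded glutamine tract is a risk factor for amyotrophic lateral sclerosis, and TDP-43 is the RNA-binding protein found in the inclusions of that disease.

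The proteasome is the large protease that degrades proteins tagged with ubiquitin. Its core particle is a barrel of alpha rings, which gate the entrance, around beta rings, which hold the cutting sites, and its regulatory particle recognises ubiquitin, removes it, and unfolds the protein with a ring of ATPases. Cells adjust many subunit genes together, in mammals through the transcription factor Nfe2l1 (also called Nrf1), which binds antioxidant response elements, and in neurons the proteasome clears misfolded proteins, among them forms of TDP-43.

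Because the members moved together in the Q33 double mutant, as described further on, the promoters were searched for that element. RefSeq promoter windows (GRCm38.p6, from 250 bases before to 50 after the gene start) were matched for 30 of the 36 members, leaving Psmb1, Psmb2, Psmb7, Psmc3, Psmd3 and Psmd7. The letters TGACNNNGC, read on both strands, occurred in 5 of the 30 windows (16.7%), against 14% of 27025 genes with a window. The 5 stretches of 60 bases lie upstream of the RefSeq gene start and are written 5′ to 3′ on the strand of the gene, with the match in capitals. They run chr11:70525297-70525356 (plus strand) for Psmb6, chr14:54618003-54618062 (minus) for Psmb5, chr14:45329577-45329636 (plus) for Psmc6, chr11:107479278-107479337 (plus) for Psmd12 and chr5:123228130-123228189 (plus) for Psmd9. In Psmc6 and Psmd12 the match reads on the opposite strand.
Psmb6: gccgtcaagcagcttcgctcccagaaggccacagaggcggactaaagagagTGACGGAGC
Psmb5: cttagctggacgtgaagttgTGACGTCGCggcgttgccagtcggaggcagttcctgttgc
Psmc6: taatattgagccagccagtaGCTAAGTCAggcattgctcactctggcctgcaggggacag
Psmd12: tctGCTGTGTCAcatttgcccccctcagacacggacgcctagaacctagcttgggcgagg
Psmd9: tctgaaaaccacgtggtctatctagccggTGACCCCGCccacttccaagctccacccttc
The match began 9 bases before the start in Psmb6, 31 in Psmd9, 47 in Psmb5, 227 in Psmc6 and 247 in Psmd12. Of other promoter letters, again on both strands, the GC box GGGCGG was in 18 of the 30 member windows, namely 76.5% of the 17 regulatory and 38.5% of the 13 core members, against 38.2% of all windows. CCAAT was in 36.7% of member windows against 41.1% of all windows. The interferon-stimulated response element, searched as GAAA, any 2 bases and GAAA again, was in 3 of the 30 member windows (Psmb3, Psmd4 and Psmd9), against 3.99% of all windows. These matches describe letters in the window and are not shown to be bound.

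Read pairs counted in genes came to between 16061359 and 30978678 per library, so that 3 counts stood for 0.0968 to 0.187 CPM. CPM values are counts scaled by library totals and TMM factors. Markers of neurons, oligodendrocytes, astrocytes and microglia were detected in all 18 libraries. Several library properties differed between the Q33 double mutant and NTg. Mitochondrial ribosomal RNA took 26.1% ± 2.70 of counts in the Q33 double mutant and 17.8% ± 3.05 in NTg (SD, n = 3 each), with TMM factors of 0.861 to 0.943 and 1.03 to 1.09. The summed level of 5 neuron markers ran from 7322 to 8697 CPM in the Q33 double mutant and from 4982 to 5613 CPM in NTg, although Syt1 averaged 127 CPM in the Q33 double mutant and 234 CPM in NTg. Oligodendrocyte markers summed to 8548 to 10531 CPM in the Q33 double mutant and 11502 to 13038 CPM in NTg, and astrocyte markers to 5127 to 6716 CPM in the Q33 double mutant and 6732 to 7017 CPM in NTg, both without overlap. The astrocyte marker Gfap averaged 389 CPM in the Q33 double mutant and 1155 CPM in NTg. In the same order, Aqp4 averaged 606 and 850 CPM and Slc1a3 36.95 and 71.7 CPM. The other astrocyte markers lay closer together, Slc1a2 at 4756 and 4797 CPM and Aldh1l1 at 35.3 and 34.5 CPM. The Hox10 and Hox11 genes of the lumbar and sacral cord had a mean log2 CPM of 1.76 ± 1.57 in the Q33 double mutant and -1.43 ± 0.60 in NTg, and Y-linked genes summed to over 10 CPM in 1 of 3 and 0 of 3 libraries. Over all 18 libraries that Hox level ran from -2.46 to 3.54, although all carry the same tissue label. The part of these properties in the results below was not tested beyond the fits given with them.

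Proteasome genes were higher in the Q33 double mutant than in NTg across the core and the regulatory particle. Of the 36 members, 14 passed the test upward and 0 downward, 6 of 16 core and 8 of 20 regulatory genes, where 5.68% of all genes tested were called higher and 6.39% lower (edgeR's quasi-likelihood test, Benjamini-Hochberg adjusted p under 0.05). The log2 fold change was above 0 for all 36, against 48.6% of all genes, with a median of 0.44 for the members and -0.01 for all genes, and a range of 0.13 for Psmd11 to 0.63 for Psmb6. Most members also shared a sign in some comparisons where none was called, as given further on. At an unadjusted p under 0.05 there were 31 members, all higher, against 14.3% of all genes. In 22 members every Q33 double mutant library lay above every NTg library, a pattern found in 14.4% of all genes. The summed level of the members was 2153, 1972 and 1672 CPM in the Q33 double mutant, against 1391, 1466 and 1442 CPM in NTg. The other groups averaged 1440 ± 131 CPM in the Q22 double mutant, 1491 ± 176 CPM in TDP-43, 1570 ± 43.2 CPM in Q33 and 1581 ± 163 CPM in Q22 (SD, n = 3 each). Replicate 1 of the Q33 double mutant was the highest library of all 18, and without it no member was called against NTg (0 by edgeR, 18 at an unadjusted p under 0.05), with a median of 0.33 and 0.764% of all genes called higher. In whole cord, more cells of a type and more RNA per cell cannot be told apart.

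**Figure D1:**
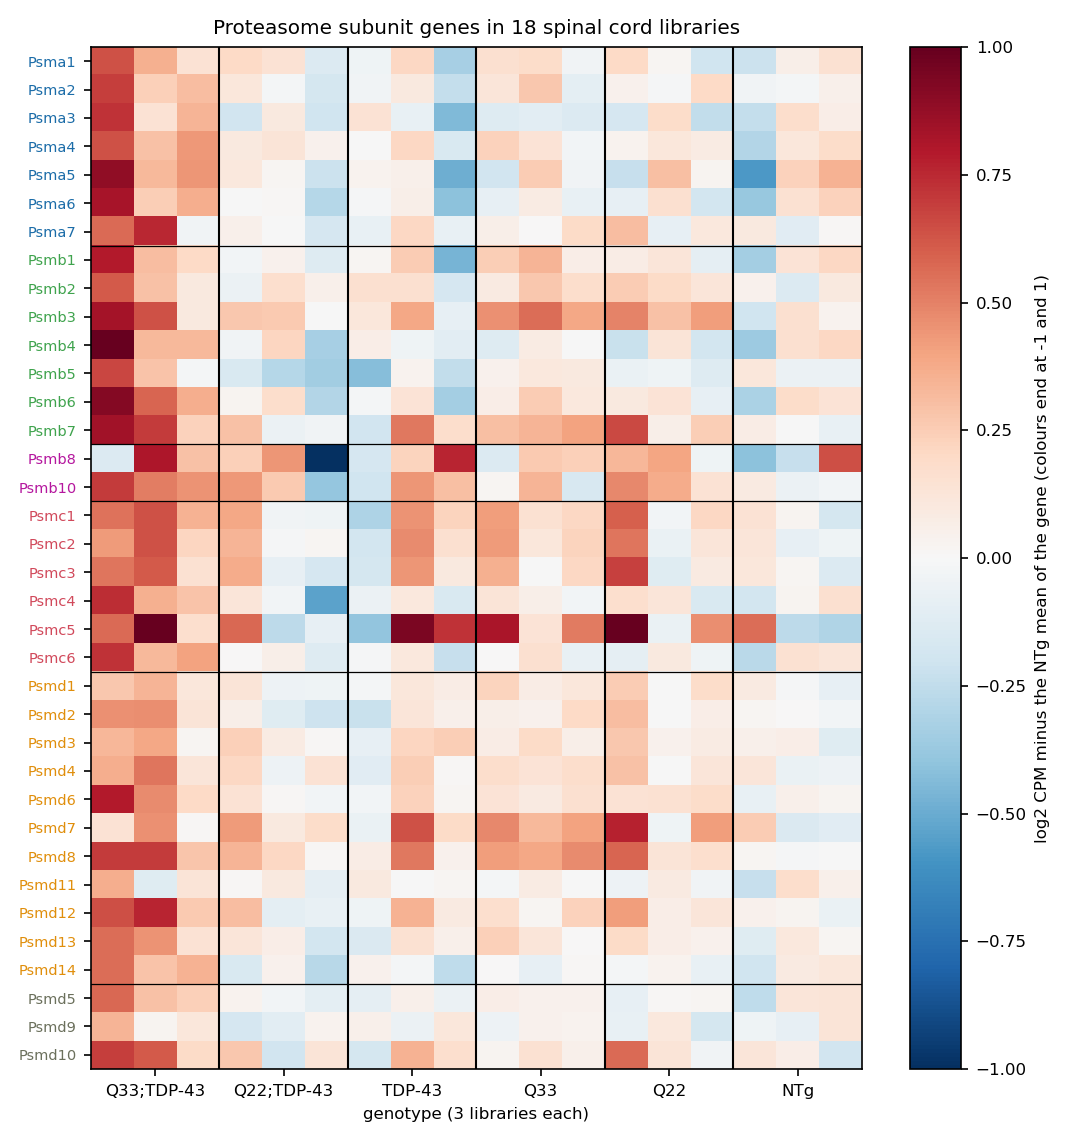
Level of each of the 36 members (down the page, coloured by class) in each of the 18 libraries (across, 3 per genotype), as log2 CPM minus the gene's NTg mean, red above and blue below it. Members are mostly red in the 3 libraries of the Q33 double mutant, whose first library has the highest summed level, 2153 CPM, while Psmc5 runs from 69.4 to 235 CPM with a high library in every genotype.

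In the alpha ring, all 7 genes had an unadjusted p under 0.05 and 2 were called, with a median log2 fold change of 0.45 in the Q33 double mutant over NTg. Psma4, an alpha subunit, had 75.0, 59.3 and 65.4 CPM in the Q33 double mutant, against 39.4, 52.2 and 54.9 CPM in NTg. Its lowest Q33 double mutant library stood above its highest NTg library, and the difference was 0.45 on the log2 scale (SE 0.12, adjusted p = 0.0229). Psma2, the other called alpha subunit, had 33.4, 24.3 and 25.6 CPM in the Q33 double mutant, against 20.1, 20.4 and 21.4 CPM in NTg, also without overlap. Its log2 fold change was 0.43. The largest difference in the ring was that of Psma5 at 0.52, where the groups overlapped and the adjusted p was 0.118.

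Of the 7 constitutive beta subunits, Psmb6, Psmb7, Psmb3 and Psmb4 were called, and the ring had the largest median among the classes, 0.56. Psmb6, which carries the caspase-like site, had 70.1, 55.5 and 47.5 CPM in the Q33 double mutant, against 29.6, 41.9 and 40.7 CPM in NTg. No library overlapped, and the log2 fold change of 0.63 (SE 0.16, adjusted p = 0.0177) was the largest of all members. Psmb7, which carries the trypsin-like site, had 45.6, 41.2 and 29.8 CPM in the Q33 double mutant, against 26.8, 25.4 and 24.2 CPM in NTg. Its groups did not overlap either, at a difference of 0.61 on the log2 scale (SE 0.18, adjusted p = 0.034). Psmb4, at 0.57, and Psmb3, at 0.56, complete the called genes, the last with overlapping libraries. Psmb5, which carries the chymotrypsin-like site, had 14.3, 10.9 and 8.84 CPM in the Q33 double mutant, against 9.74, 8.60 and 8.63 CPM in NTg. The lowest of the Q33 double mutant libraries fell among the NTg libraries, and at 0.34 (SE 0.15, adjusted p = 0.155) it was not called. The pseudogenes named after Psmb5, Psmb6 and Psmb7 held at most 2 counts in any library.

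**Figure D2:**
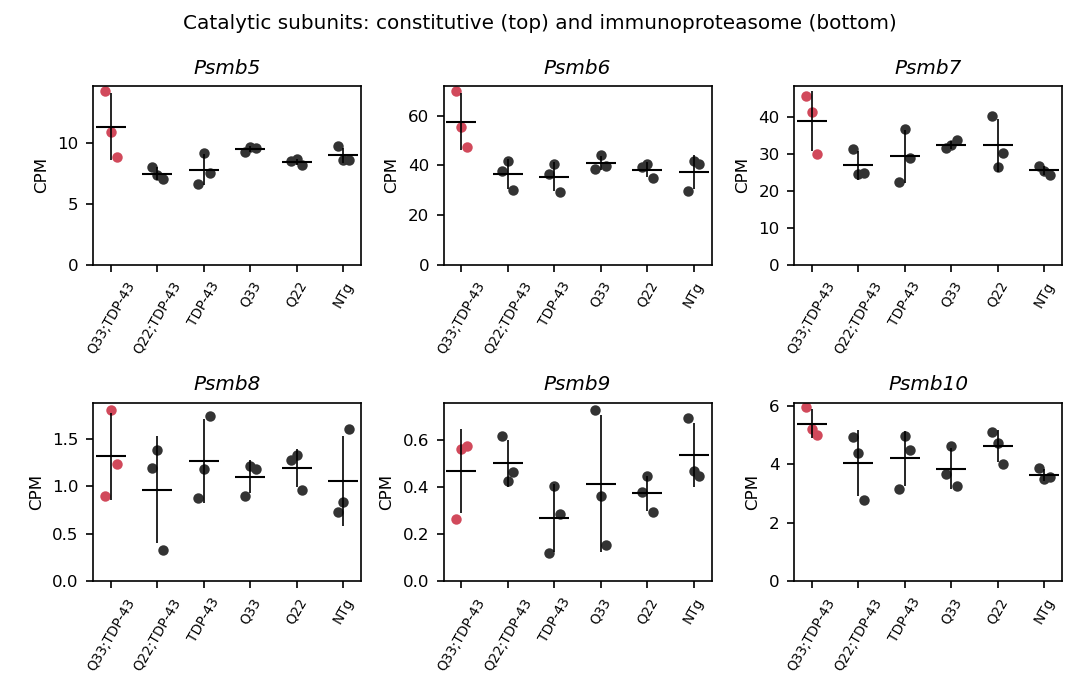
CPM of the constitutive catalytic subunits (top row) and the immunoproteasome subunits (bottom row) in the 6 genotypes, with a point for each library, a horizontal bar at the mean and a vertical bar of 1 SD on either side. Psmb6 and Psmb7 in the Q33 double mutant, in red, lie above all NTg libraries, while Psmb8 and Psmb9 stay under 2 CPM and overlap between the Q33 double mutant and NTg.

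The immunoproteasome subunits replace the catalytic subunits when cells are exposed to interferon, Psmb8 in place of Psmb5, Psmb9 in place of Psmb6 and Psmb10 in place of Psmb7. None was called in the Q33 double mutant over NTg by edgeR, DESeq2 called neither Psmb8 nor Psmb10, and of the 3 Psmb10 alone had an unadjusted p under 0.05. Psmb8 had 0.900, 1.81 and 1.24 CPM in the Q33 double mutant, against 0.729, 0.834 and 1.6 CPM in NTg, with overlapping libraries and an adjusted p of 0.682. Psmb9, below the level for membership, had 0.263, 0.562 and 0.575 CPM in the Q33 double mutant, against 0.690, 0.469 and 0.445 CPM in NTg. These are between 7 and 18 counts per library, and the groups overlapped (adjusted p = 0.825). Psmb10 had 5.96, 5.22 and 5.0 CPM in the Q33 double mutant, against 3.87, 3.49 and 3.56 CPM in NTg. Its libraries did not overlap, its log2 fold change was 0.57 (SE 0.21), and its adjusted p of 0.0882 missed the threshold. Per exon length, Psmb8 stood at 4.03% ± 1.76 of Psmb5 in the Q33 double mutant and 3.91% ± 1.93 in NTg, and Psmb10 at 28.5% ± 4.55 of Psmb7 in the Q33 double mutant and 28.7% ± 1.01 in NTg (SD, n = 3 each). Psmb9 stood at 0.443% ± 0.223 of Psmb6 in the Q33 double mutant and 0.774% ± 0.361 in NTg. The ranges overlapped for all 3 pairs. The deposited exon lengths were 3421 bases for Psmb7, 1705 for Psmb10 and 2736 for Psmb8. Their longest coding transcripts have 1160, 1311 and 1628 bases. The size of these shares, though not their comparison between genotypes, therefore depends on the length used.

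The ATPase ring unfolds the substrate, and all 6 of its genes had positive log2 fold changes with a median of 0.48, of which Psmc6 alone was called. Psmc6 had 148, 113 and 119 CPM in the Q33 double mutant, against 74.7, 99.9 and 97.8 CPM in NTg, with no overlap, a log2 fold change of 0.48 (SE 0.12) and an adjusted p of 0.0172. Psmc1, Psmc2, Psmc3 and Psmc4 were also without overlap between the groups, at 0.51, 0.43, 0.44 and 0.47, and Psmc4 had an adjusted p of 0.0501. Psmc5 had 135, 200 and 102 CPM in the Q33 double mutant, against 134, 76.2 and 74.0 CPM in NTg. Its libraries overlapped, and its log2 fold change of 0.62 came with an SE of 0.37 and an adjusted p of 0.283.

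Of the 11 non-ATPase subunits, 6 were called and 9 had an unadjusted p under 0.05, with a median of 0.36. Psmd6, a subunit of the lid that covers the regulatory particle, had 68.4, 54.8 and 45.4 CPM in the Q33 double mutant, against 37.4, 41.0 and 40.2 CPM in NTg. The groups were apart, and its adjusted p of 0.00892 was the smallest of the members, at a log2 fold change of 0.51 (SE 0.11). Psmd14, the deubiquitinase of the lid, had 89.3, 74.0 and 77.4 CPM in the Q33 double mutant, against 52.8, 64.6 and 65.7 CPM in NTg. Those libraries were apart as well, at 0.40 (SE 0.11, adjusted p = 0.023). The lid subunits Psmd8 (0.58), Psmd12 (0.57) and Psmd13 (0.39) and the base scaffold Psmd2 (0.36), which binds ubiquitin shuttle proteins, were the remaining called genes. The ubiquitin receptor Psmd4, at 0.35, had an adjusted p of 0.052. The smallest values were those of Psmd3 at 0.25, the base scaffold Psmd1 at 0.24, Psmd7, the partner of Psmd14, at 0.20, and the lid subunit Psmd11 at 0.13.

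Psmd5, Psmd9 and Psmd10 carry the same name stem but encode chaperones that assemble the base of the regulatory particle and leave it afterwards. Psmd5 had 56.5, 46.5 and 44.7 CPM in the Q33 double mutant, against 31.7, 41.2 and 41.4 CPM in NTg, with no overlap and a difference of 0.37 on the log2 scale (SE 0.10, adjusted p = 0.0278). Psmd10 was at 0.52 with an adjusted p of 0.0721, and Psmd9 was at 0.17 with overlapping libraries and an adjusted p of 0.373.

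**Figure D3:**
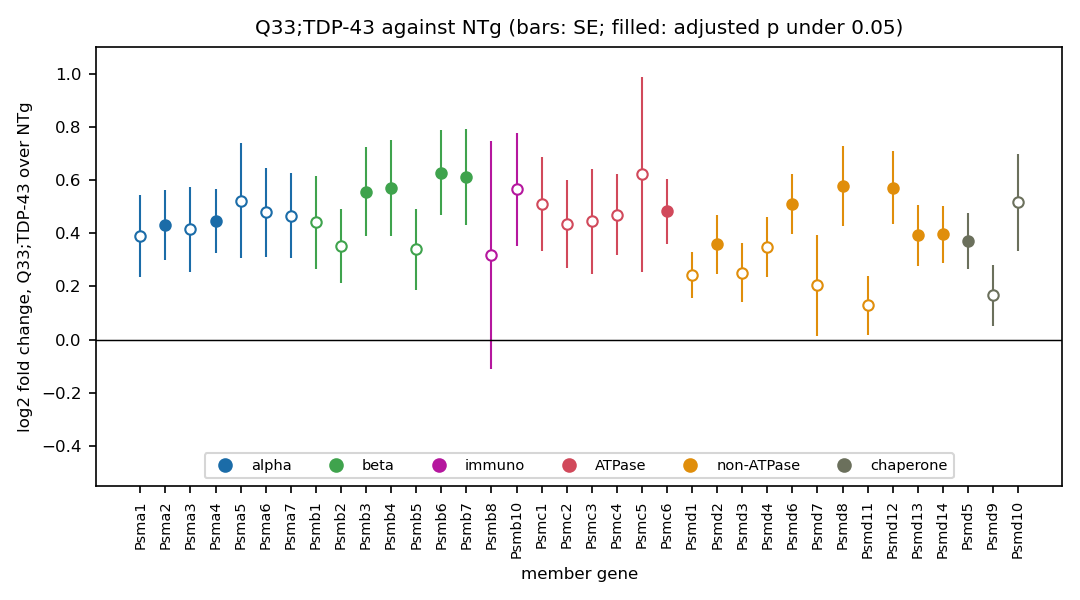
Log2 fold change of each member in the Q33 double mutant over NTg, with bars of 1 SE, filled where the adjusted p was under 0.05 and coloured by class. All 36 points lie above 0, from 0.13 for Psmd11 to 0.63 for Psmb6, and the bar of Psmb8 alone reaches below 0.

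The Q33 double mutant was also set against the genotypes that share a knocked-in gene with it, and these comparisons share its 3 libraries. Against TDP-43, 16 members were called higher and 0 lower, where 5.98% of all genes were called higher and 6.66% lower, with a median of 0.41 for the members and -0.02 for all genes, and 26 members had an unadjusted p under 0.05 against 14% of all genes higher at that level. Against the Q22 double mutant, which asks for the effect of tract length beside TDP-43, 16 were called higher and 0 lower, where 6.67% of all genes were called higher and 6.17% lower, with medians of 0.43 for the members and -0.01 for all genes. There 27 members had an unadjusted p under 0.05, against 14.6% of all genes. Psmd14 had the smallest adjusted p in both. Its levels were 89.3, 74.0 and 77.4 CPM in the Q33 double mutant, against 54.6, 62.7 and 50.1 CPM in the Q22 double mutant and 62.7, 60.1 and 50.9 CPM in TDP-43, with no overlap. The log2 fold changes of Psmd14 were 0.52 over the Q22 double mutant (SE 0.11, adjusted p = 0.00474) and 0.47 over TDP-43 (SE 0.11, adjusted p = 0.00948). Psmb6 had 37.8, 41.8 and 30.1 CPM in the Q22 double mutant and 36.4, 40.7 and 29.1 CPM in TDP-43, all below its levels in the Q33 double mutant, at log2 fold changes of 0.66 (adjusted p = 0.0129) and 0.70 (adjusted p = 0.00978) for the Q33 double mutant. Psmc6 had 90.4, 93.9 and 82.3 CPM in the Q22 double mutant and 89.4, 96.7 and 76.8 CPM in TDP-43, again all lower than in the Q33 double mutant. Its log2 fold changes were 0.51 and 0.53 for the Q33 double mutant.

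More of the alpha ring was called in these comparisons, 5 of 7 genes in each. Psma6, an alpha subunit, had 76.4, 51.1 and 55.5 CPM in the Q33 double mutant, against 43, 43.5 and 35.3 CPM in the Q22 double mutant, a difference of 0.59 on the log2 scale (SE 0.17, adjusted p = 0.029). Psma2 had 22.3, 20.4 and 18.2 CPM in the Q22 double mutant and 20.1, 22.1 and 17.5 CPM in TDP-43, under all 3 of its levels in the Q33 double mutant, with log2 fold changes of 0.45 and 0.48. Psma3 (0.51 over the Q22 double mutant and 0.53 over TDP-43) and Psma4 (0.37 and 0.43) were called in both comparisons, as was Psma6 (0.61 over TDP-43). Psma7 was called over the Q22 double mutant at 0.51 and not over TDP-43 at 0.44 (adjusted p = 0.0777). Psma5 was called over TDP-43 at 0.69 and not over the Q22 double mutant at 0.60 (adjusted p = 0.0745). Psmb5 had 8.06, 7.35 and 7.05 CPM in the Q22 double mutant and 6.67, 9.21 and 7.54 CPM in TDP-43. It was called in both comparisons, at 0.60 (adjusted p = 0.0168) and 0.54 (adjusted p = 0.0303), and overlapped with TDP-43. Psmd5 was called at 0.41 in both, with 38.8, 37.0 and 35.3 CPM in the Q22 double mutant and 35.5, 39.1 and 36.4 CPM in TDP-43. The other called genes, in both comparisons, were Psmb4, Psmc4, Psmd2, Psmd6, Psmd12 and Psmd13, between 0.37 and 0.62. Without replicate 1 of the Q33 double mutant the counts were 0 over TDP-43 and 1 over the Q22 double mutant, where 0.788% and 1.22% of all genes were called higher. The counts were 0 without TDP-43 replicate 3 and 5 without TDP-43 replicate 1, where 1.48% and 2.49% of all genes were called higher. They were 1 without Q22 double mutant replicate 3 and 6 without its replicate 2, where 1.31% and 3.13% of all genes were called higher. With the share of mitochondrial ribosomal RNA as a term in the fit, 0 members were called by edgeR over TDP-43 (0 at an unadjusted p under 0.05) and 0 over the Q22 double mutant (3 at that level), where 0% of all genes were called higher over TDP-43 and 0.00485% over the Q22 double mutant. The medians of the members were then 0.11 over TDP-43 and 0.21 over the Q22 double mutant. The mitochondrial share ran from 23.4% to 28.7% in the Q33 double mutant. It ran from 12.7% to 20.9% in TDP-43 and from 16.7% to 20.1% in the Q22 double mutant. Because neither range reaches that of the Q33 double mutant, the groups compared cannot by themselves tell this share apart from genotype.

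Against Q33 alone, which asks for the effect of TDP-43 beside the long tract, 0 members were called by edgeR, where 0.213% of all genes were called higher and 0.678% lower. There 18 members had an unadjusted p under 0.05, all higher, against 8.78% of all genes, and the median was 0.27 against -0.01 for all genes. DESeq2 called 9 members and gave no adjusted p for 1, where it called 2.65% of all genes higher. Psmd14 again had the smallest adjusted p, 0.0611, with 60.8, 57.3 and 61.3 CPM in Q33, all below its levels in the Q33 double mutant. Psmb6 had 38.7, 44.1 and 39.9 CPM in Q33, below the Q33 double mutant, at a log2 fold change of 0.50 (adjusted p = 0.111). With the share of mitochondrial ribosomal RNA as a term, 0 members had an unadjusted p under 0.05 by edgeR, at a median of 0.15. Without Q33 double mutant replicate 1 there were 5 by edgeR, at a median of 0.21. In both fits 0% of all genes were called higher. The interaction of Q33 with TDP-43, the change in the double mutant beyond the sum of both single knock-ins on the log2 scale, had a median of 0.28 over the members against -0.02 over all genes. No member was called for it by edgeR, and 9 had an unadjusted p under 0.05 and a positive value, against 6.33% of all genes, of which Psmd14, at 0.50 (SE 0.15, adjusted p = 0.245), had the smallest p. Of all genes, edgeR called 0% for it. DESeq2 gave no adjusted p for 10 members and called none of the others, where it called 0.31% of all genes higher. With the mitochondrial term, edgeR gave 0 members with a positive and 1 with a negative value at an unadjusted p under 0.05. The median of the interaction was then 0.12. Without Q33 double mutant replicate 1 there were 3 positive members at that level by edgeR, at a median of 0.19.

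In the remaining comparisons no member was called in either direction by edgeR or by DESeq2, and few genes were called at all, at most 0.00485% in each direction by edgeR and at most 0.0291% higher by DESeq2. The median over the members was 0.01 for the Q22 double mutant over NTg, 0.03 for TDP-43 over NTg, 0.10 for Q33 over NTg, 0.12 for Q22 over NTg, 0.00 for Q33 over Q22, -0.04 for the Q22 double mutant over TDP-43 and -0.11 for the Q22 double mutant over Q22. Over NTg, 31 of 36 members were above 0 for Q33, 26 for Q22, 22 for TDP-43 and 19 for the Q22 double mutant. For the Q22 double mutant over Q22, 32 were below 0. The medians of all genes in these 5 comparisons ran from -0.0129 to 0.007. At an unadjusted p under 0.05 there were 2 members for Q33 over NTg (Psmd8 at 0.43 and Psmb3 at 0.47, against 3.34% of all genes), 2 for Q22 over NTg (Psmb3 at 0.40 and Psmd7 at 0.41, against 2.09%), and 0 in each of the others. Of all genes, the share at that level in either direction was 2.3% for the Q22 double mutant over NTg, 4.23% for TDP-43 over NTg, 2.14% for Q33 over Q22, 2.41% for the Q22 double mutant over TDP-43 and 4.12% for the Q22 double mutant over Q22. The interaction of Q22 with TDP-43 had a median of -0.14 with 0 members at that level, against 4.01% of all genes. Psmb6 stayed between 29.1 and 44.1 CPM in all 15 libraries outside the Q33 double mutant.

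**Figure D4:**
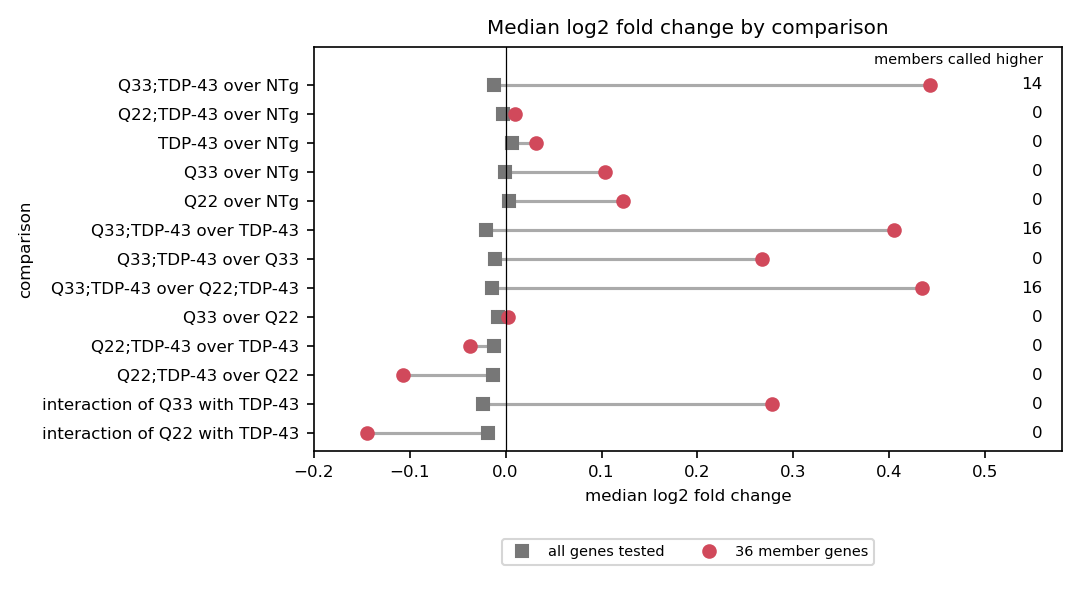
Median log2 fold change over the 36 members (red circles) and over all genes tested (grey squares) in the 11 comparisons of 2 groups and the 2 interactions, with the number of members called higher at the right. The members' medians of 0.41 to 0.44 belong to the Q33 double mutant over NTg, TDP-43 and the Q22 double mutant, which share libraries, with 0.27 over Q33.

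Levels per exon length in NTg ranged widely between members. Psmc5, an ATPase, was the highest at 68.0 ± 24.5 RPKM (CPM per kilobase of exon, SD, n = 3), followed by Psma6 at 35.5 ± 7.64, Psmc1 at 32.0 ± 3.56 and Psmd2 at 28.7 ± 0.518, neighbours whose ranges of 1 SD touch or overlap apart from Psmc5. The lowest were Psmb10 at 2.14 ± 0.119, Psmd9 at 1.63 ± 0.128 and Psmb8 at 0.386 ± 0.174 RPKM, which lay apart by more than their SDs. By class, the median NTg level was 21.3 RPKM for the ATPases, 17.4 for the alpha ring, 13.7 for the non-ATPase subunits, 7.86 for the constitutive beta ring and 5.02 for the assembly chaperones. The order of members and classes holds for the deposited exon lengths only. These exceed the longest coding transcript unequally, at 1872 against 798 bases for Psmb6, 7265 against 3112 for Psmd1 and 1394 against 1316 for Psmc5.

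Psmc5 varied most within genotypes, with a coefficient of variation of 39.2% where the median member had 14.5% and Psmd1 the least at 7.0%. It was singled out after its values were seen. It ran from 69.4 CPM (TDP-43 replicate 1) to 235 CPM (Q22 replicate 1), and 6 other members (Psmc1, Psmc2, Psmc3, Psmd1, Psmd4 and Psmd7) had their highest library in each of the 6 genotypes where Psmc5 had its own. That was 17.1% of the 35 other members, against 2.57% of 16278 genes.

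Genes that work with the proteasome were read from lists, in the Q33 double mutant over NTg, where 5.68% of all genes were called higher. With the share of mitochondrial ribosomal RNA as a term, 0% of all genes were called higher, so none of the genes named here was. Without Q33 double mutant replicate 1, 0.764% of all genes were called higher. Of 5 core assembly chaperones 1 was called higher, Pomp, which matures the beta subunits, at a log2 fold change of 0.70 (adjusted p = 0.0257). Pomp averaged 72.0 ± 16.7 CPM in the Q33 double mutant and 44.3 ± 11.7 CPM in NTg. Of 5 other activators and inhibitors, Psme3, a nuclear activator, was called at 0.38 (adjusted p = 0.0309), while the interferon-induced activator subunits Psme1 and Psme2 were at -0.09 and 0.20 and were not called. Of 5 further regulator-bound proteins 2 were called, the ubiquitin ligase Ube3c at 0.35 (adjusted p = 0.0107) and the deubiquitinase Usp14 at 0.38 (adjusted p = 0.0414). Ube3c averaged 129 ± 8.92 CPM in the Q33 double mutant and 101 ± 4.53 CPM in NTg. Of 6 ubiquitin genes and activating enzymes Rps27a, which encodes a fusion of ubiquitin with a ribosomal protein, was called at 0.48 (adjusted p = 0.0431). Of 10 shuttle and p97 genes Ubqln4, a shuttle factor, was called at 0.33 (adjusted p = 0.0358).

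Of 8 genes listed as regulators of proteasome gene transcription 0 were called higher and 1, the transcription factor Maf, was called lower. Of all genes, 5.68% were called higher and 6.39% lower. Whether Maf itself acts on proteasome genes was not tested here. Maf averaged 40.4 ± 6.05 CPM in the Q33 double mutant and 54.0 ± 2.16 CPM in NTg, a log2 fold change of -0.42 (adjusted p = 0.0387). Nfe2l1 averaged 419 ± 34.7 CPM in the Q33 double mutant and 338 ± 41.1 CPM in NTg, with a log2 fold change of 0.31 that was not called (adjusted p = 0.124). Of 15 genes of the interferon response and class I peptide loading 0 were called by edgeR, 1 had an unadjusted p under 0.05 (Gbp2, at -0.63, lower), and their median was -0.03. Markers of T and B lymphocytes, which express the immunoproteasome, summed to 0.269 ± 0.150 CPM in the Q33 double mutant and 0.757 ± 0.121 CPM in NTg, where 3 counts stood for 0.0968 to 0.125 CPM in the Q33 double mutant and 0.125 to 0.161 CPM in NTg. Microglia markers summed to 190 ± 13 CPM in the Q33 double mutant and 260 ± 29.8 CPM in NTg (SD, n = 3 each).

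How many members were called against NTg depended on scaling and on terms in the fit. With library totals in place of TMM, 0 were called by edgeR (7 at an unadjusted p under 0.05), where 1.01% of all genes were called higher. There 32 of 36 were above 0, and the median was 0.20 while that of all genes moved to -0.25. Scaling shifts all genes by nearly the same amount, so the members' 0.45 above all genes could hardly differ from that under TMM. With the share of mitochondrial ribosomal RNA as a term, 0 were called (edgeR, 1 at an unadjusted p under 0.05), with 0% of all genes called higher, and the median was 0.18, 0.18 above that of all genes, and 30 of 36 were above 0. That share did not overlap between the Q33 double mutant and NTg, so these 2 groups alone cannot tell it apart from genotype. With the Hox10 and Hox11 level as a term 1 was called at a median of 0.43, where 0.582% of all genes were called higher. That level ran from 0.546 to 3.54 in the Q33 double mutant and from -1.97 to -0.782 in NTg. It did not overlap either, so these 2 groups alone cannot tell it apart from genotype. With sex as a term 8 were called at a median of 0.41, where 4.62% of all genes were called higher. The library of the Q33 double mutant with Y-linked counts over 10 CPM was replicate 1. Without it, neither group compared held such a library, at a median of 0.33 and 0 called, where 0.764% of all genes were called higher. That fit still held such libraries of other genotypes, so it is not a fit within 1 sex.

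**Figure D5:**
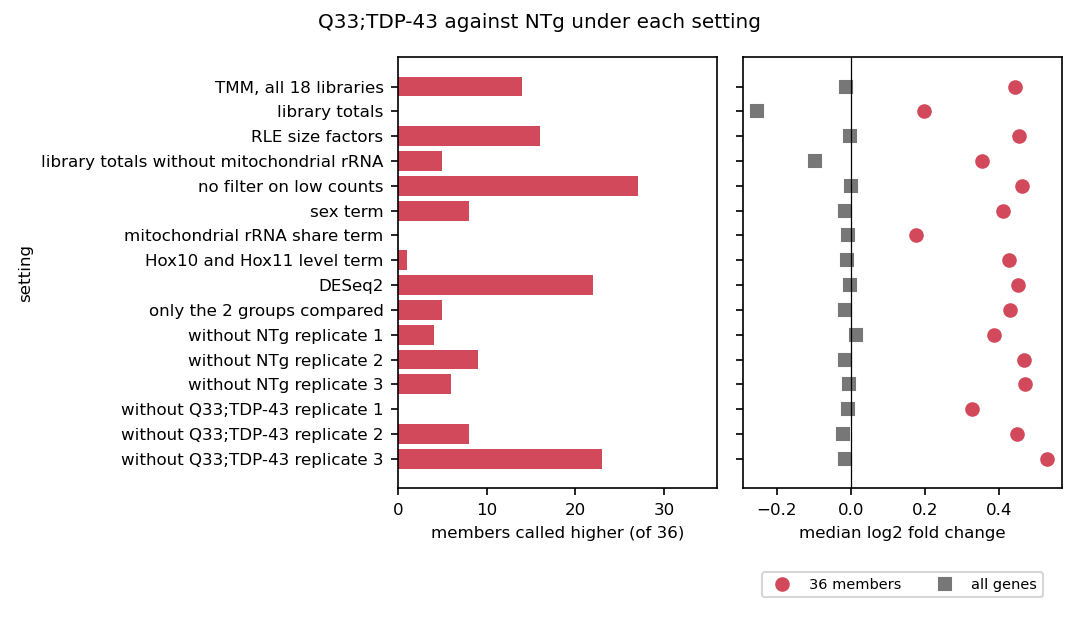
Members called higher in the Q33 double mutant over NTg (left, bars from 0 of 36) and the median log2 fold change of the members (red circles) and of all genes (grey squares, right) under each setting. The count runs from 0 to 27, and the members' median lies above that of all genes in every setting shown.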

How the data were processed

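Gene counts for 18 spinal cord libraries were analysed as deposited. Per the file headers, the authors made the whole-number counts with featureCounts 1.6.1 on exons of GENCODE mouse release 19, in stranded paired mode, from TopHat alignments, and the counts are not normalized. The submitters' processing notes also name Trim Galore 0.4.1, TopHat2, DESeq2 and mm10, with no role or order. Those settings leave out read pairs that map to several places or genes, which lowers the counts of genes with near-identical copies. Total RNA was depleted of ribosomal RNA and made into stranded libraries, per the labels' protocols.

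All 18 libraries entered 1 fit with a term per genotype by edgeR 4.0.16 (quasi-likelihood, two-sided, TMM scaling, its filter on low counts, R 4.3.3), over 20635 genes, with Benjamini-Hochberg adjustment over all of them in each of 11 comparisons and 2 interactions and a threshold of 0.05. Log2 fold changes and SEs are from that fit, CPM use TMM-scaled totals, and RPKM divide CPM by the deposited exon length. Of 54446 gene identifiers 99.93% had a symbol. The script was tested on simulated data. Each library is 1 animal, the depth was 16061359 to 30978678 counts, and floors of 3 counts cover counting error only (no molecular identifiers are mentioned in the protocols). Of 153 library pairs 0 were identical.

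Values per library are given for Psmb5 to Psmb10 and, per comparison and class, for the called member with the smallest adjusted p; other called members and at most 3 called genes of each related list are named, and genes outside this rule are named for a stated reason. The members and lists were chosen with earlier results of these data known. Promoter sequences are from RefSeq (GRCm38.p6). Other scaling, filters, covariates, DESeq2 1.42.0, fits of 2 groups and leaving out each library were tried. Sex, litter and lane of each animal are not given in the sources used here.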

Additional observations from a re-analysis of the deposited data

How the results depend on the processing

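Members called higher in the Q33 double mutant over NTg (14 of 36) numbered 0 with library totals, 5 with totals without mitochondrial rRNA, 27 with no filter, 8 with a sex term, 0 with the mitochondrial rRNA term, 1 with the Hox term, 22 by DESeq2, 5 with only these 2 groups, and 0 (without Q33 double mutant replicate 1) to 23 (without its replicate 3) with a library left out. The share of all genes called higher moved as well, from 5.68% to 1.01%, 3.26%, 4.53%, 4.62%, 0%, 0.582%, 8.61% and 3.42% in the order of those settings, and to 0.764% and 7.29% without those libraries. Leaving out NTg replicates 1, 2 and 3 gave 4, 9 and 6, and Q33 double mutant replicate 2 gave 8. In that order 2.64%, 4.15%, 1.99% and 3.28% of all genes were called higher. Over TDP-43 (16) they numbered 1 with library totals, 8 with totals without mitochondrial rRNA, 0 with its term, 1 with the Hox term, 0 with only these 2 groups, and 0 to 23 with a library left out, where 1.24%, 3.75%, 0%, 0.46% and 0.328% of all genes, and 0.788% to 8.28% with a library left out, were called higher. Over the Q22 double mutant (16) they numbered 2 with library totals, 8 without mitochondrial rRNA, 0 with its term, 10 with the Hox term, 5 with only these 2 groups, and 1 to 22 with a library left out. There 1.43%, 3.64%, 0.00485%, 4.02% and 3.4% of all genes, and 1.22% to 7.94% with a library left out, were called higher. Over Q33 (0) they numbered 10 with no filter, 9 by DESeq2 and 0 to 3 with a library left out. Of all genes, 1.27%, 2.65% and 0% to 0.675% were called higher there. With no filter, 1 member was called higher in each of TDP-43, Q33 and Q22 over NTg, 5 in the interaction of Q33 with TDP-43, and 1 lower in the Q22 double mutant over Q22 and in the interaction of Q22 with TDP-43. There 0.176% of all genes were called higher for TDP-43, 0.663% for Q33, 0.482% for Q22 and 0.451% for the interaction of Q33. Called lower were 99 of all genes in the Q22 double mutant over Q22 and 142 in the interaction of Q22. With RLE factors the 3 counts, over NTg, TDP-43 and the Q22 double mutant, were 16, 16 and 16. There 6.45%, 6.7% and 6.86% of all genes were called higher. The log2 fold change of Psmb9 over NTg turned positive with the mitochondrial rRNA term (0.16) and without NTg replicate 1 (0.03) or Q33 double mutant replicate 1 (0.079), against -0.39 without Q33 double mutant replicate 3, and that of Psma5 over TDP-43 was -0.078 with that term. The cause was not tested, and the fits that leave a library out also hold fewer libraries. No paired analysis was possible because the animals share no number across genotypes. The precision for Psmb9 is limited by 7 to 18 counts per library.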
